A study of Sus scrofa with 16 samples.

Results

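The NR4A genes code for a family of 3 orphan nuclear receptors, and their transcripts were followed in the left ventricle of exercise-trained and sedentary pigs. Members were all probe sets, each a group of short DNA probes that read a transcript, that the platform annotation of the porcine Affymetrix array names NR4A1, NR4A2 or NR4A3. That gave 3 of the 23935 probe sets tested: 2 for NR4A3 (Entrez gene 397479), 1 for NR4A2 (Entrez gene 100157120) and 0 for NR4A1. So 2 of the 3 family genes were measured, among 6765 named genes. NR4A1 is entered as a pseudogene in the RefSeq table of assembly Sscrofa11.1, where NR4A3 and NR4A2 are protein-coding. The family was chosen by the difference of NR4A3 between the training groups in these same arrays. That difference is therefore described here and not tested.

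The 16 animals were Yorkshire x Landrace pigs aged 2 to 3 months, with 1 array each. The exercised group held 8 exercise-trained animals and the sedentary group 8 untrained ones, all sampled 4 to 5 weeks after the protocol began. Each group had 4 females and 4 neutered males. The labels do not say how long after the last bout of exercise the heart was taken. Values are log2 signals, so a difference of 1 is a doubling. In whole ventricular tissue, fewer cells of a type and less RNA per cell cannot be told apart.

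NR4A receptors act without a known circulating ligand: how much of the protein is made sets how much it does. Their genes are immediate early genes, which are switched on within minutes to an hour by hormones that raise cAMP, by calcium entry, by growth factors or by mechanical load, and are soon switched off again. In skeletal muscle of mice, beta-adrenergic signals and exercise induce them, and there they are known for raising genes of glucose and fat use. NR4A3, also called NOR-1, is in addition known for growth control in vascular smooth muscle cells.

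The arrays fell into 2 sets by the signal of the bacterial poly-A control transcripts that are added before labelling. Set A held 11 arrays, with control means of 7.80 to 8.961 log2, from 6 exercised and 5 sedentary animals. Set B held 5 arrays, with means of 6.17 to 6.745 log2, from exercised 7 and 8 and sedentary 6, 7 and 8. The sets also differed in the actin control, which reads a transcript near its 3' end and near its 5' end. The 3' signal exceeded the 5' signal by 2.349 to 2.994 log2 in set A and by 1.266 to 1.847 in set B. The cause of this difference was not tested. The labels do not name these sets. Correlations of an array with the average of the remaining arrays were 0.9881 to 0.9936, and 9 of the 10 listed cardiomyocyte markers were measured, with mean signals of 11.56 to 14.61 log2.

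The brighter NR4A3 probe set ran from 6.24 to 8.57 log2 in the 8 exercised animals, with a median of 7.40. In the 8 sedentary animals it ran from 8.29 to 10.81, with a median of 9.39. Of the exercised animals 7 lay below the lowest sedentary animal. The overlap came from exercised 7, at 8.57, and sedentary 6, at 8.29, both of them males of set B. The mean was 7.35 ± 0.71 in exercised and 9.36 ± 0.77 in sedentary animals (SD, n = 8 each). The difference averaged over the sexes was -2.01 log2 (SE 0.353), or 4.02-fold, and no other of the 23935 probe sets differed by as much.

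The dimmer NR4A3 probe set gave a second reading of the same gene. It ran from 4.00 to 4.66 log2 in exercised animals, with a median of 4.28, and from 4.78 to 6.31 in sedentary animals, with a median of 5.16. The groups did not overlap. Over all tested probe sets, 1.68% had exercised values that all lay below the sedentary ones. The difference was -0.95 log2 (SE 0.194), or 1.93-fold, which placed it 23rd in the order of lower signals in exercised animals. Both probe sets read the same RNA samples and are not independent evidence of the difference.

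**Figure D1:**
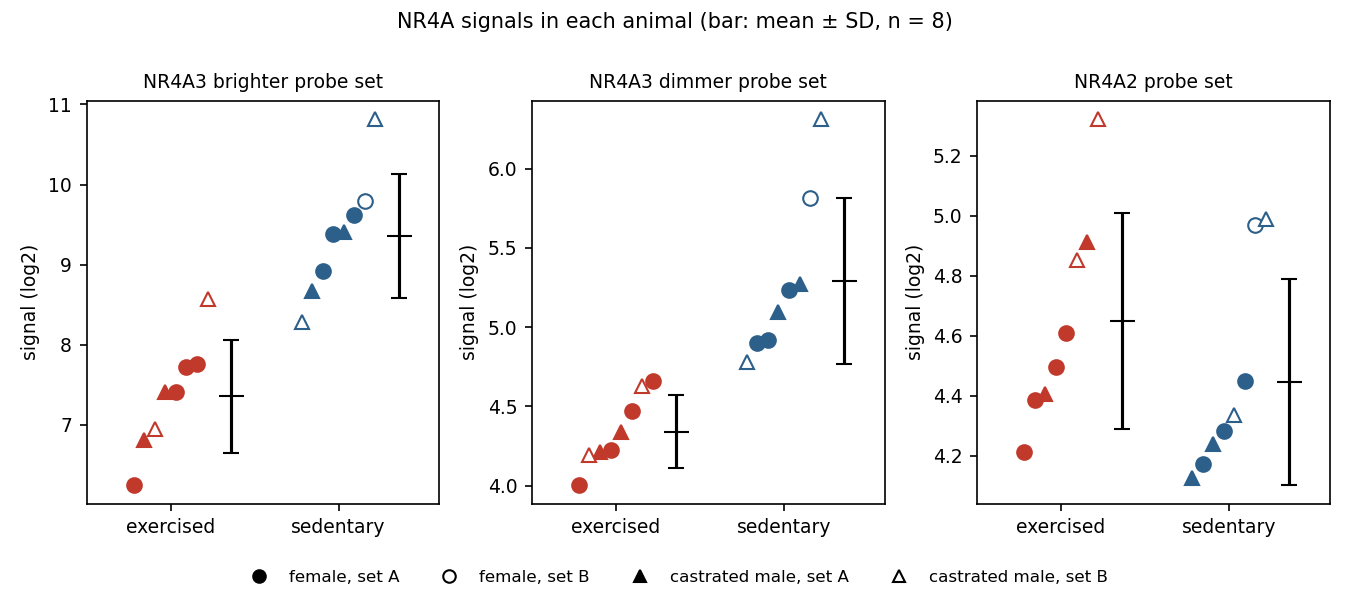
Signal (log2) of the 3 NR4A probe sets in each of 8 exercised and 8 sedentary pigs; circles are females, triangles castrated males, open symbols the arrays of set B, and bars the mean ± SD. Exercised animals lie below sedentary ones on both NR4A3 probe sets, apart from exercised 7 and sedentary 6 on the brighter one, while the groups overlap for NR4A2.

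The 2 NR4A3 probe sets correlated within each group, though they did not order all animals the same way. Their Pearson correlation was 0.91 over the exercised and 0.87 over the sedentary animals (n = 8 each), as a description of 2 readings of the same arrays. Exercised 1 was the lowest animal on both, at 6.24 and 4.00 log2. Sedentary 7 was the highest on both, at 10.81 and 6.31 log2, and sedentary 6 was the lowest sedentary animal on both, at 8.29 and 4.78. Sedentary 1, in contrast, lay above the mean of its group on the brighter probe set, at 9.61, and above only sedentary 6 of its group on the dimmer one, at 4.90. The span between animals of a group was 2.33 log2 in exercised and 2.53 log2 in sedentary animals on the brighter probe set.

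**Figure D2:**
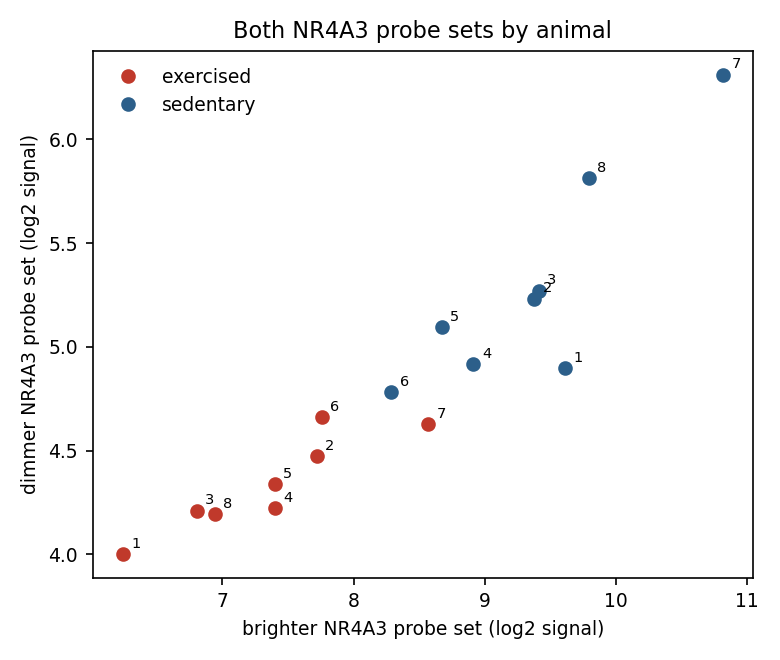
The dimmer against the brighter NR4A3 probe set (log2 signals), with a point per animal labelled by its number. Both axes rise together from exercised 1 at 6.24 and 4.00 to sedentary 7 at 10.81 and 6.31, with some animals, such as sedentary 1, placed differently on the 2 axes.

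NR4A2, best known for its part in dopamine neurons and also an immediate early gene, had a single, dim probe set. It ran from 4.21 to 5.32 log2 in exercised animals, with a median of 4.55, and from 4.13 to 4.99 in sedentary animals, with a median of 4.31. The groups overlapped, and 5 of 8 exercised animals lay above the sedentary mean. The means were 4.65 ± 0.36 in exercised and 4.45 ± 0.34 in sedentary animals (SD, n = 8 each), a difference of 0.20 log2 (SE 0.152).

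The NR4A2 signal moved with the array sets. In set B it was 4.34 to 5.32 log2 over 5 arrays, and in set A 4.13 to 4.91 over 11 arrays. The part of the sets in its values was not tested. The array also carries 64 probe sets for reporter genes that pigs lack. Their mean signals had a median of 3.75 log2 and a 95th percentile of 5.19, with probe sequences that differ from those of NR4A2. Of these controls 10 were above the NR4A2 mean of 4.55, 8 above the mean of 4.82 of the dimmer NR4A3 probe set, and 1 above the mean of 8.36 of the brighter one. Whether the NR4A2 signal stood above background was not tested.

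Whether the sexes differed is a question that the choice of the family did not use. The brighter NR4A3 probe set averaged 8.35 ± 1.26 log2 in females and 8.36 ± 1.34 in males (SD, n = 8 each, training groups pooled). The difference of females minus males, averaged over training, was -0.01 log2, with a 95% interval from -0.76 to 0.74 (limma, adjusted p = 0.994; exact permutation p = 0.974, two-sided). The dimmer probe set averaged 4.78 ± 0.58 in females and 4.85 ± 0.71 in males, a difference of -0.08, with an interval from -0.49 to 0.34 (limma, adjusted p = 0.902; exact permutation p = 0.717). NR4A2 averaged 4.45 ± 0.26 in females and 4.65 ± 0.43 in males, a difference of -0.20, with an interval from -0.52 to 0.12 (limma, adjusted p = 0.634; exact permutation p = 0.266). Set B, where NR4A2 was higher, held 4 males and 1 female. With array set as a block the NR4A2 difference was -0.01. None of the 3 probe sets passed, and 0.0919% of all tested probe sets did.

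Split by sex, the brighter NR4A3 probe set was 7.28 ± 0.71 log2 in exercised and 9.42 ± 0.38 in sedentary females (SD, n = 4 each), a difference of -2.14 (SE 0.499). In males it was 7.43 ± 0.80 in exercised and 9.30 ± 1.11 in sedentary animals, a difference of -1.87 (SE 0.499). The values ran from 6.24 to 7.76 in exercised and from 8.91 to 9.79 in sedentary females. These are animals on which NR4A3 was chosen, so the split by sex is a description. The male groups overlapped, with 6.80 to 8.57 in exercised and 8.29 to 10.81 in sedentary males. The training difference in females minus that in males was -0.28 log2, with a 95% interval from -1.78 to 1.22 (limma, adjusted p = 1; exact permutation p = 0.726).

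The same contrast was 0.15 log2 on the dimmer probe set, with an interval from -0.68 to 0.97 (limma, adjusted p = 1; exact permutation p = 0.727). For NR4A2 it was -0.49, with an interval from -1.14 to 0.15 (limma, adjusted p = 1; exact permutation p = 0.17). NR4A2 averaged 4.87 ± 0.37 in exercised and 4.42 ± 0.39 in sedentary males, and 4.43 ± 0.17 in exercised and 4.47 ± 0.35 in sedentary females (SD, n = 4 each). By limma, 0 probe sets in all (0%) passed for this contrast, against 621 at an unadjusted p under 0.05. With 4 animals per sex and group these intervals leave room for sizeable differences between the sexes.

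NR4A3 varied from animal to animal far more than most transcripts within the same training and sex group. Its SD within these 4 groups was 0.796 log2 on the brighter probe set, against a median of 0.184 over all probe sets, which put it at the 99.43rd percentile. Among the 1000 probe sets nearest to it in signal, whose median was 0.231, it lay at the 98.8th percentile. The dimmer probe set had an SD of 0.432 (94.36th percentile) and NR4A2 an SD of 0.333 (87.1st percentile). Against the 1000 probe sets nearest in signal these were the 95.9th and 93.6th percentiles. The spread of the brighter probe set was larger in set B. With the sexes pooled, its SD in set A was 0.59 log2 in 6 exercised and 0.39 in 5 sedentary animals. In set B it was 1.15 in 2 exercised and 1.27 in 3 sedentary animals. The part of the sets in this spread was not tested. The SD within groups leaves out the training difference. Yet NR4A3 was chosen by that difference, and such a choice favours probe sets that vary much.

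Within set A, NR4A3 on the brighter probe set was 6.24 to 7.76 log2 in 6 exercised and 8.67 to 9.61 in 5 sedentary animals. Within set B it was 6.94 and 8.57 in 2 exercised males, against 8.29, 9.79 and 10.81 in 3 sedentary animals. The plain difference of group means was -1.98 in set A and -1.88 in set B. Leaving out 1 animal at a time, the training difference ran from -2.20 without exercised 7 to -1.75 without sedentary 7.

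NR4A3 was then set beside the other nuclear receptors, the superfamily of ligand-regulated transcription factors. Lists were read on the brightest probe set per gene. Of 45 listed receptors 24 were measured, of which 0 rose, 3 fell and 21 did not pass. Over all 6765 named genes 5.11% rose and 4.91% fell. The median difference of the 24 was 0.06 log2, against 0.01 over all genes. Here and below, rose and fell are used of exercised relative to sedentary animals and of genes past an adjusted p of 0.05 by limma.

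NR0B1, a receptor without a DNA-binding domain that represses other receptors, fell by 0.54 log2 (SE 0.0761, limma adjusted p = 0.000355). It ran from 4.53 to 4.99 in exercised and from 5.11 to 5.49 in sedentary animals, without overlap, on a dim probe set. PPARG, the fat cell regulator, fell by 0.52 (SE 0.158, adjusted p = 0.0408), at 5.75 ± 0.37 in exercised and 6.26 ± 0.28 in sedentary animals (SD, n = 8 each). HNF4A, a liver regulator, fell by 0.35 (SE 0.0995, adjusted p = 0.0284), at 5.67 ± 0.20 in exercised and 6.02 ± 0.21 in sedentary animals. PPARG lost its call without any 1 of 12 of the animals and HNF4A without any 1 of 5, and both lost it with set A alone and when only probe sets above the 40th percentile of signal were tested. NR0B1 kept its call in all 16 fits without 1 animal, but lay below that percentile. The count of 3 that fell was 1 without exercised 2 or 7 or without sedentary 3 or 5. The count of 0 that rose was 2 without exercised 5 and 1 without exercised 2 or without sedentary 7 or 8, and it was 2 with array weights, with the replicate block and with array set as a block.

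Among the 21 that did not pass, the smallest p values belonged to 4 genes. NR2F1, an orphan receptor of atrial and vascular development, changed by 0.32 log2 (adjusted p = 0.0768), and NR1H3, an oxysterol receptor, by 0.20 (adjusted p = 0.0802). RXRA, the retinoid receptor with which NR4A1 and NR4A2 can pair, changed by -0.23 on its brightest reading (adjusted p = 0.104). On a dimmer probe set, at 4.42 log2, RXRA fell by 0.37 (adjusted p = 0.00673). NR5A1, the steroidogenic factor, changed by 0.23 on the brightest reading (adjusted p = 0.11) and fell by 0.26 on a dimmer one (adjusted p = 0.029).

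**Figure D3:**
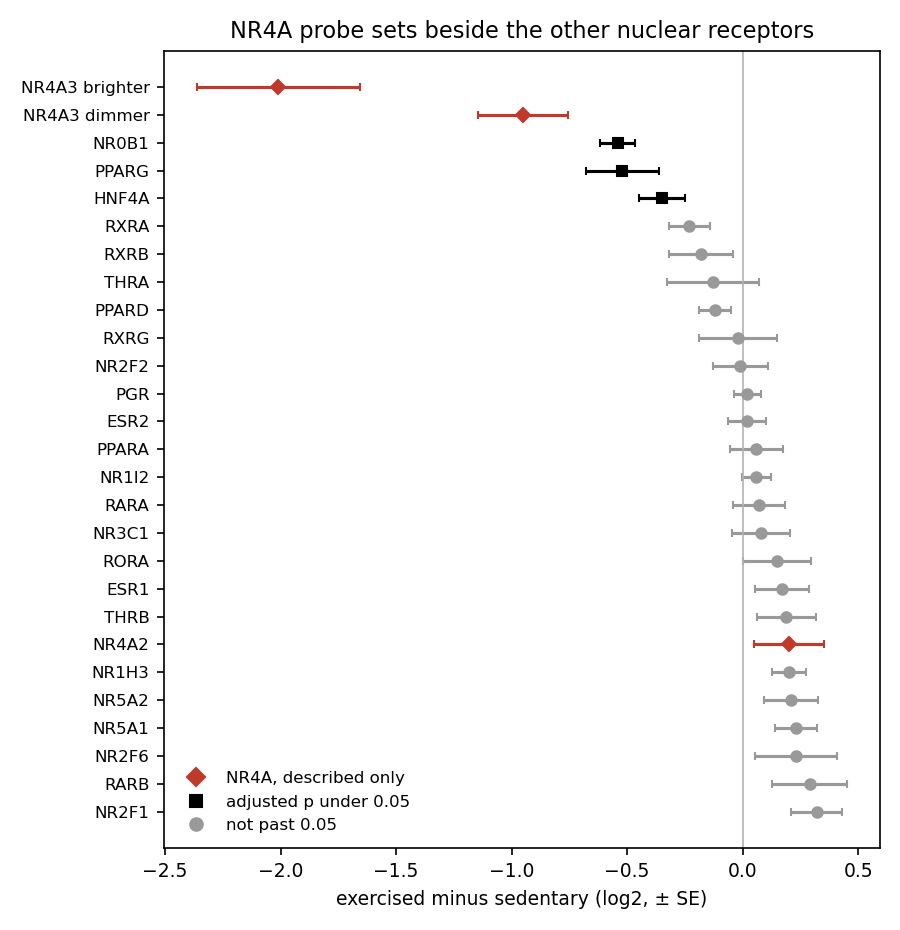
Difference of exercised minus sedentary animals (log2, ± SE) for the 3 NR4A probe sets (diamonds) and the brightest probe set of 24 other nuclear receptors, sorted by difference. Both NR4A3 probe sets, at -2.01 and -0.95, lie below NR0B1, PPARG and HNF4A, the 3 receptors that fell.

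Genes of the pathways that control NR4A transcription, activators and inhibitors alike, were also measured. The list held beta-adrenergic receptors, protein kinase A, the CREB family that binds cAMP response elements, calcium-dependent kinases, calcineurin with its NFAT targets, and the MEF2 factors. It also held genes that act against these signals, among them the phosphodiesterases PDE3A, PDE4A and PDE4B, the deacetylase HDAC5 and the kinases SIK2 and SIK3. Of 50 genes 23 were measured, of which 0 rose, 1 fell and 22 did not pass, with a median difference of 0.00 log2. The share that fell was 4.35%, near the 4.91% of all named genes. CREM, which codes for CREB-like activators and for the cAMP-induced repressor ICER, fell by 0.58 log2 (SE 0.155, limma adjusted p = 0.0211). It ran from 9.64 to 10.32 in exercised animals, with a median of 9.93, and from 9.91 to 11.17 in sedentary animals, with a median of 10.44. All 8 exercised animals lay below the sedentary mean, though the groups overlapped.

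The other 3 CREM probe sets changed by -0.28, -0.20 and -0.13 log2 without passing. With set A alone CREM did not pass, at -0.48 (adjusted p = 0.0894). The count of 1 was 2 without exercised 3 or 6 or without sedentary 6 or 8. CREB1, the cAMP response factor itself, changed by -0.46 on its brightest reading (adjusted p = 0.059) and rose by 0.25 on a dimmer one (adjusted p = 0.0238). PDE4A, which breaks down cAMP, changed by -0.24 (adjusted p = 0.0964), and fell by 0.30 on a dimmer probe set (adjusted p = 0.0173). Its remaining probe sets went the other way, by 0.22 (adjusted p = 0.0784) and 0.21 (adjusted p = 0.258). ADRB3, a beta-adrenergic receptor, changed by 0.14 (adjusted p = 0.0824), and PPP3CB, a catalytic subunit of calcineurin, by 0.16 (adjusted p = 0.133).

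Among partners and coregulators of NR4A proteins 15 of 26 were measured, and 0 of them rose or fell by limma, beside 5.11% and 4.91% of all named genes. The median difference of the 15 was -0.06 log2. The smallest p values here were those of RXRA and of XRCC6, a DNA repair protein, at -0.13 (adjusted p = 0.168). Without sedentary 5 the count that fell was 1. NCOR1, a corepressor, changed by -0.15 (adjusted p = 0.314) but fell by 0.35 on a dimmer probe set (adjusted p = 0.00523), and PPARGC1A, the mitochondrial coactivator, by -0.21 (adjusted p = 0.355).

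Genes that respond to NR4A receptors in mouse muscle or vascular cells were mostly metabolic enzymes. Of 40 listed 30 were measured, with 1 that rose, 0 that fell and 29 that did not pass, at a median of -0.07 log2. The share that rose was 3.33%, below the 5.11% of all named genes. FBP2, the muscle fructose bisphosphatase, rose by 0.38 (SE 0.0635, limma adjusted p = 0.00113) on a dim probe set. It was 5.02 to 5.30 log2 in exercised and 4.72 to 5.08 in sedentary animals, with all 8 exercised animals above the sedentary mean. BPGM, which makes bisphosphoglycerate, changed by 0.27 (adjusted p = 0.0567), and SLC25A20, the mitochondrial carnitine carrier, by 0.23 (adjusted p = 0.152). UCP3, a mitochondrial uncoupling protein, changed by -0.15 (adjusted p = 0.195). The count of 1 that rose was 2 without exercised 8 and 3 without sedentary 7 or 8, and 1 fell without sedentary 5.

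GPD1, the glycerol phosphate dehydrogenase of the cytosol, changed by 0.63 log2 (SE 0.209, adjusted p = 0.0576). It was 7.71 ± 0.45 in exercised and 7.08 ± 0.55 in sedentary animals (SD, n = 8 each), and 7 of 8 exercised animals lay above the sedentary mean.

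The wider class to which NR4A genes belong was examined on a list of 63 other immediate early genes, of which 37 were measured. None rose, 7 fell and 30 did not pass, with a median difference of -0.28 log2. That is 18.9% of the measured list, beside 4.91% of all named genes. The count ran from 4 to 10 when 1 animal was left out. It was 4 without exercised 1, 3 or 5 and without sedentary 2 or 3. It was 3 among probe sets above the 40th percentile of signal and 1 above the 60th. Over all probe sets 631 and 77 were called under these filters, against 3197 without them. Of the 37 genes 30 were above the 60th percentile, against 4316 of the 6765 named genes. The shares of 18.9% and 4.91% are thus not matched on signal.

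KLF4, a Krüppel-like factor of endothelium and smooth muscle, fell by 0.64 log2 (SE 0.0994, limma adjusted p = 0.00063), at 7.61 to 8.26 in exercised and 8.28 to 9.09 in sedentary animals, without overlap. HES1, a Notch-induced repressor, fell by 0.59 (adjusted p = 0.00168), at 6.55 ± 0.17 in exercised and 7.14 ± 0.33 in sedentary animals (SD, n = 8 each). KLF2, a flow-induced endothelial factor, fell by 0.29 on a dim probe set (adjusted p = 0.00601). DUSP1, which shuts off MAP kinases, fell by 0.66 (adjusted p = 0.0268), and MCL1, a survival protein, by 0.28 (adjusted p = 0.0393). CREM, already given, and CEBPD, a transcription factor of stress and inflammation that fell by 0.64 (adjusted p = 0.0453), complete the 7. CEBPD was named after its value was seen. DUSP1 lost its call without any 1 of 7 of the animals, MCL1 without any 1 of 10 and CEBPD without any 1 of 13, where its adjusted p reached 0.0894. KLF2 lost its call with set A alone.

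Some differences of larger or similar size did not pass. ATF3, a stress-induced factor, changed by -1.63 log2 (SE 0.563, adjusted p = 0.0679), at 6.38 ± 1.10 in exercised and 8.01 ± 1.29 in sedentary animals (SD, n = 8 each). CYR61, a matrix-associated growth signal, changed by -0.91 (adjusted p = 0.0561), RGS1, a brake on G protein signals, by -0.76 (adjusted p = 0.162), and FOSL2, of the AP-1 family, by -0.48 (adjusted p = 0.0786). A dimmer RGS1 probe set fell by 0.52 (adjusted p = 0.00181).

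For some classical members the direction was not the same in both array sets. FOS, the prototype of the class, differed by -1.59 log2 in set A and 0.85 in set B, and EGR1, an early zinc-finger factor, by -1.41 and 0.72. IER2, another early transcriptional regulator, differed by -0.75 in set A and 0.88 in set B. NR4A3, at -1.98 and -1.88, did not turn its direction, nor did KLF4, at -0.70 and -0.50, CREM, at -0.43 and -0.83, or HES1, at -0.63 and -0.58. Of the others that fell, CEBPD did turn, at -0.88 in set A and 0.10 in set B, DUSP1 was at -0.78 and -0.18, MCL1 at -0.37 and -0.13, and KLF2 at -0.21 and -0.43. NR4A3 was chosen, and the genes that fell were called, on these same arrays, which in itself favours 1 direction in both sets. FOS, EGR1 and IER2 were not called, so the 2 kinds of gene are not alike in this. Set B rests on 2 exercised and 3 sedentary animals, and the difference between sets was not tested.

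Which genes followed NR4A3 from animal to animal was examined on the residuals, the deviations of each animal from the mean of its training and sex group. These do not carry the training difference. Immediate early genes had a median correlation of 0.32 with the brighter NR4A3 probe set over the 16 residuals, against -0.02 over all named genes, and 31 of 37 (83.8%) were above 0, against 48.3% of all named genes. Without sedentary 7 the medians were 0.39 and -0.03. KLF4 (0.76), CREM and the kinase gene SGK1 (both 0.71), DUSP1 and IER2 (both 0.63) and RGS1 (0.60) followed NR4A3 most closely over all 16 residuals. FOS and EGR1 did so less closely (0.42 and 0.43). The order changed without sedentary 7, where BTG2 (0.75) and MCL1 (0.73), also of the list, led. KLF4 was then at 0.65, DUSP1 at 0.64, IER2 at 0.62, CREM at 0.58, EGR1 at 0.56, FOS at 0.55, SGK1 at 0.50 and RGS1 at 0.39. A dimmer RGS1 probe set was at -0.01 over the 16 residuals. HES1 (-0.14) and KLF2 (0.01), which fell between the groups, did not follow NR4A3 within them. All of these values share the same 16 arrays.

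The other lists had lower medians, at 0.15 for the regulators, 0.22 for partners and coregulators, 0.12 for the responsive genes and -0.05 for other nuclear receptors. Without sedentary 7 the regulators were at -0.05, partners and coregulators at 0.12, the responsive genes at 0.10 and other nuclear receptors at -0.04. NR4A2 had a correlation of 0.25 with the brighter NR4A3 probe set over the residuals, and of 0.00 once the array sets were removed as well.

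**Figure D4:**
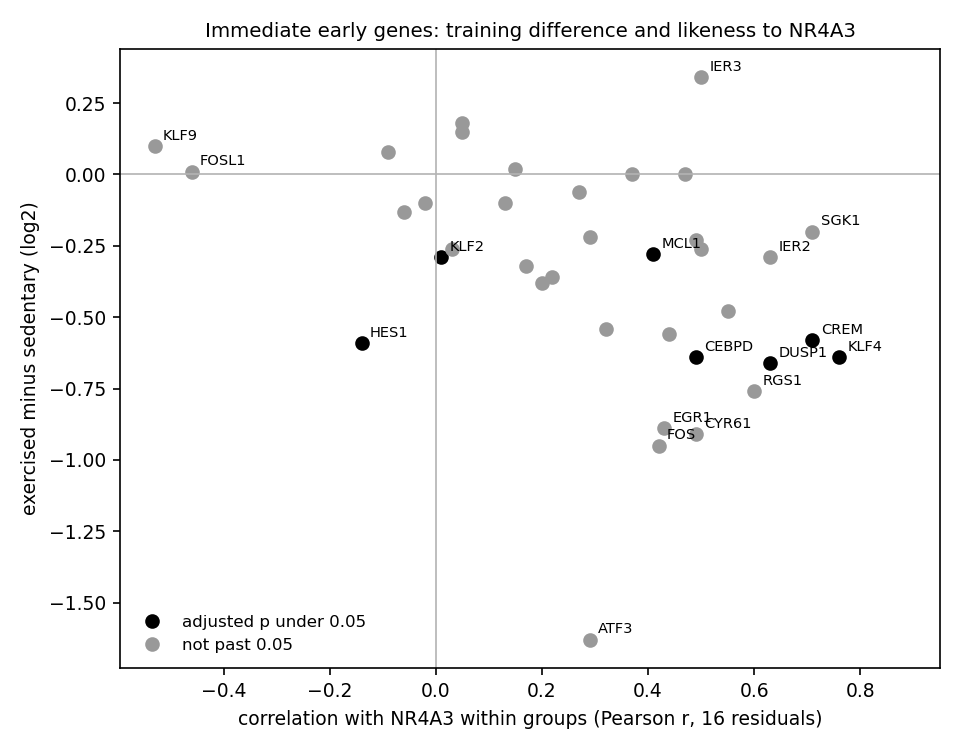
Immediate early genes by their Pearson correlation with NR4A3 within groups (x, over 16 residuals) and by their difference of exercised minus sedentary animals (y, log2); black points passed an adjusted p of 0.05. Most genes lie right of 0, with KLF4 at 0.76, while HES1 and KLF2 fell without following NR4A3 from animal to animal.

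Over all 5450 named genes with a probe set above the 40th percentile of signal, the 5th and 95th percentiles of the correlations were -0.49 and 0.49, and 6 of 7364 probe sets exceeded 0.8. The 8 genes most like NR4A3 were B2M, the light chain of class I histocompatibility molecules (0.85), GK, glycerol kinase (0.84), SYS1, a Golgi protein (0.83), HIVEP2, a zinc-finger factor (0.83), GPD1 (0.82), PIGS, of the enzyme that attaches lipid anchors (0.81), GALK1, galactokinase (0.80), and DPH3, of diphthamide synthesis (0.77). The B2M probe set was 1 of 9 for that gene, and the correlations of the other 8 ran from -0.62 to 0.12, so its likeness is that of a probe set and not of the gene. Without sedentary 7, the animal with the most NR4A3, the 8 values were 0.64 to 0.77, and GK, B2M and SYS1 were still among the 8 most alike. By the dimmer NR4A3 probe set the 8 values were 0.67 to 0.92.

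GPD1 and GK, both enzymes of glycerol phosphate, followed NR4A3 within groups, while their differences between the training groups lay at or above 0. GK was 7.27 ± 0.13 log2 in exercised and 7.23 ± 0.16 in sedentary animals (SD, n = 8 each), a difference of 0.04 (limma adjusted p = 0.783). A dimmer GK probe set correlated with NR4A3 at 0.29 and changed by 0.34 (adjusted p = 0.0729). GPD1 was on average higher in exercised animals, as given above, without passing. HIVEP2 did both, falling by 0.67 on that probe set (adjusted p = 0.00915), while its brighter probe set changed by -0.14 without passing.

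The 4 genes that ran most against NR4A3 were THBS3, a thrombospondin of the matrix (-0.91), MGAT1, which starts complex N-glycans (-0.88), FEZ2 (-0.85) and HMGB1, a chromatin protein (-0.84). Without sedentary 7 they were at -0.87, -0.90, -0.74 and -0.76. On these probe sets none of the 4 passed for training, with differences from -0.16 to 0.07 log2. The other probe sets of THBS3 correlated at -0.56 and 0.08 and those of HMGB1 at -0.61, -0.02 and 0.16, so there too the likeness is that of a probe set. The dimmest HMGB1 probe set rose by 0.24 (adjusted p = 0.045).

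**Figure D5:**
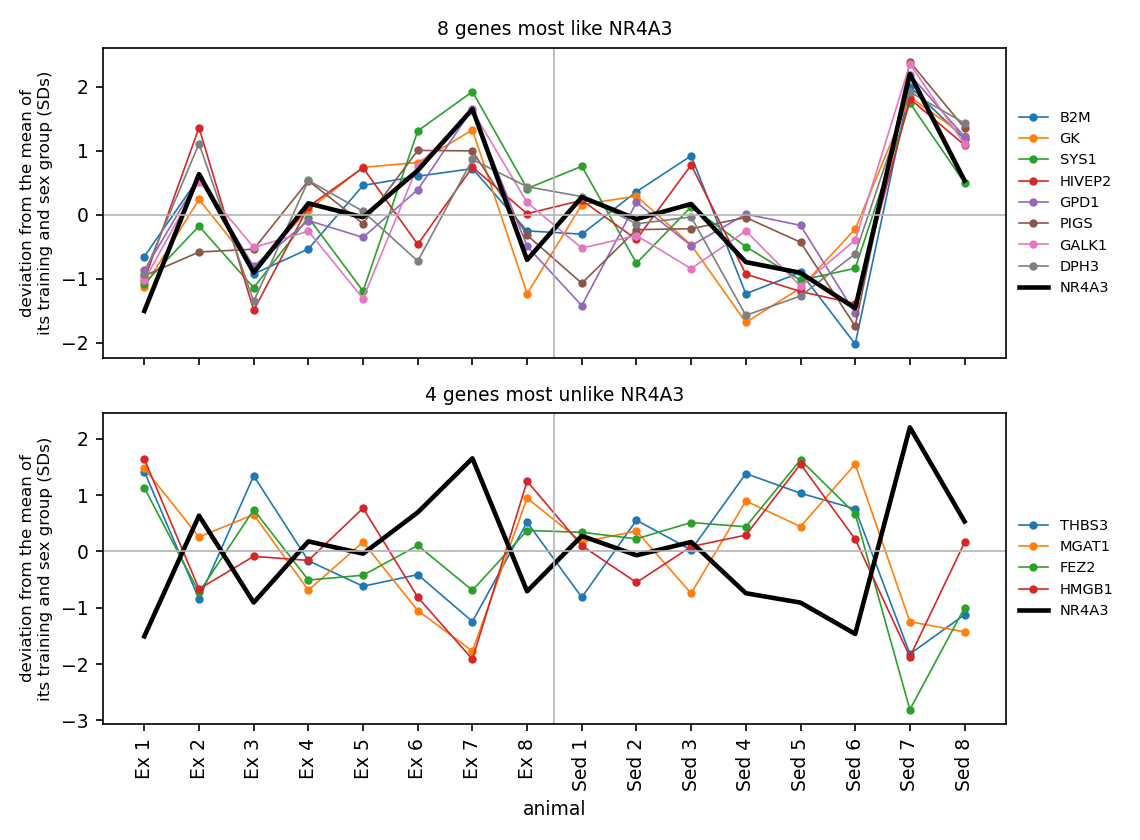
Deviation of each animal from the mean of its training and sex group, in SDs, for NR4A3 (thick line) with the 8 genes most like it (top) and the 4 most unlike it (bottom); lines only join the values of a gene. NR4A3 is highest in sedentary 7 and exercised 7 and lowest in exercised 1 and sedentary 6, and the genes at the top move with it.

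Over the 16 plain values, which carry the training difference that chose NR4A3, the genes most like it were HIVEP2 (0.93), GPATCH4 and the co-chaperone gene BAG1 (both 0.90), ROGDI, the lipid transfer gene PITPNA and KLF4 (each 0.88), the ubiquitin ligase gene RNF149 (0.86) and ABRA, an actin-binding protein of striated muscle (0.85). The most unlike were BORCS6 and WASHC5 (both -0.88), the pyruvate dehydrogenase phosphatase gene PDP2 (-0.87) and the adducin gene ADD3 (-0.86). Within groups the first 8 had correlations of 0.64 to 0.83 and the other 4 of -0.75 to -0.62. The brightest probe sets of GPATCH4 and RNF149 were not the ones named here. They correlated within groups at 0.15 and -0.17, so the likeness is that of a probe set. Dimmer RNF149 probe sets went both ways: 1 rose by 0.42 (limma adjusted p = 0.0108) and 1 fell by 0.34 (adjusted p = 0.00864). Another ROGDI probe set was at -0.32 within groups.

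Cell type markers were read beside NR4A3. Of 9 cardiomyocyte, 8 endothelial, 5 smooth muscle, 5 fibroblast and 3 erythroid markers 0 passed for training by limma on the brightest probe set. A dimmer probe set of the cardiomyocyte marker RYR2 rose, and a dimmer one of the endothelial marker VWF passed as well. Over all named genes 5.11% rose and 4.91% fell. The deviation of each animal from the mean of all animals, averaged over the endothelial markers, ran from -0.27 to 0.19 log2 in exercised and from -0.22 to 0.17 in sedentary animals. That of smooth muscle markers ran from -0.24 to 0.42 in exercised and from -0.35 to 0.41 in sedentary animals. Both groups thus overlapped on the vascular markers. For cardiomyocyte markers the deviation ran from -0.03 to 0.23 in exercised and from -0.11 to 0.03 in sedentary animals.

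Blood cell markers did include calls, all on dim probe sets at 5.38 log2 or below. ITGAM, 1 of 5 macrophage markers, rose by 0.54, and S100A8, 1 of 3 neutrophil markers, by 0.49. The others did not pass: differences were -0.29 for CD14, -0.24 for CD163, 0.04 for MRC1 and 0.43 for AIF1 among macrophage markers, and -0.45 for S100A9 and -0.10 for S100A12 among neutrophil markers. CD3G and CD79B, 2 of 7 lymphocyte markers, rose by 0.56 and 0.26, and the other 5 ran from -0.37 for CD4 to 0.57 for CD8A without passing. A dimmer CD4 probe set went the other way and rose. Averaged over all 7 lymphocyte markers, the deviation ran from -0.15 to 0.43 in exercised and from -0.66 to 0.15 in sedentary animals. It ran from -0.29 to 0.42 in exercised and from -0.49 to 0.36 in sedentary animals for macrophage markers, and from -0.18 to 0.19 in exercised and from -0.39 to 1.33 in sedentary animals for neutrophil markers.

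Within groups the 5 fibroblast markers ran against NR4A3, with a median correlation of -0.53 over the 16 residuals and -0.35 without sedentary 7. Smooth muscle markers had a median of 0.26, and of -0.24 without sedentary 7. Over the 16 residuals the medians were -0.23 for lymphocyte, -0.09 for macrophage and -0.02 for cardiomyocyte markers. They were 0.09 for erythroid, 0.13 for neutrophil and 0.17 for endothelial markers. Of the macrophage markers 0 of 5 were above 0, and of the lymphocyte markers 1 of 7. The part of these cells in the NR4A3 values was not tested.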

How the data were processed

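Left ventricular total RNA of 16 animals was biotin-labelled and read on 1 array each, per the labels' protocols. The authors deposited log2 signals, here from 2.87 to 14.86. Summarisation and normalization are not given in the sources used here; array medians ran from 6.236 to 6.242 and no further normalization was applied. Of 24123 probe sets, 124 Affymetrix and 64 reporter controls were left out. Annotation gave 1 symbol to 10069 tested probe sets, more than 1 to 198 and none to 13668. Of these symbols 9961 matched RefSeq by Entrez identifier, all unchanged.

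A mean for each combination of training and sex was fitted with limma 3.58.1 in R 4.3.3 (12 residual and 3.50 prior degrees of freedom). Adjusted p values are two-sided, by Benjamini-Hochberg over 23935 probe sets, with a threshold of 0.05. Exact tests ran over 4900 exchanges of sex within training groups. The array sets were found from 36 poly-A controls. Genes of the lists were represented by their brightest probe set. Named from each list were up to 6 called genes per direction and up to 4 others by smallest p; named for likeness were 8 genes at the top and 4 at the bottom, beside list genes given with their likeness. The family, lists and tests were chosen with earlier results of these data known. Fits were tested on simulated data. The labels do not say that animals of the same number were paired, and the numbers were not used as pairs. The labels do not name separate litters or pens, and p values measure the spread between these animals; their number limits the precision. Alternatives were other normalizations, filters on dim probe sets, variance models, weights, blocks and leaving out arrays. Figures were drawn with matplotlib 3.10.9.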

Additional observations from a re-analysis of the deposited data

Results flagged for a closer look

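Among 106 groups of 8 animals, for the members and the named genes, 7 had an animal whose gap to its nearest neighbour, as a share of the group's range, exceeded Dixon's critical value; chance alone flags about 1 group in 20. None of the 3 NR4A probe sets was among them. Sedentary 7, the animal with the highest NR4A3, stood apart for GALK1, at 8.04 log2 against 7.36 for the next animal, and for BAG1, at 9.87 against 9.62. It stood apart at the low end for FEZ2, at 6.81 against 7.78, and for HMGB1, at 12.42 against 12.56. Exercised 1, the animal with the lowest NR4A3, stood apart for KLF4, at 7.61 against 7.97. GALK1, BAG1, FEZ2, HMGB1 and KLF4 are among the genes named for their likeness or unlikeness to NR4A3. That choice favours genes in which the animals with extreme NR4A3 stand apart, so the rate of 1 in 20 does not hold for them. Sedentary 5 was low for PPARGC1A, at 9.58 against 10.22, and sedentary 6 was high for FBP2, at 5.08 against 4.85.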

How the results depend on the processing

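The lower NR4A3 signal of exercised animals kept its direction and moved by less than the spread between animals under every alternative run, from -2.36 to -1.94 log2 on the brighter probe set, or from -2.20 to -1.75 without 1 animal. On the dimmer probe set it ran from -1.09 to -0.79. The value of -2.36 came from leaving out exercised 7 and sedentary 6 together, chosen after the data were seen. The sex difference of NR4A3, near 0, changed sign without passing: 1.16 with the replicate block (adjusted p = 0.599), 0.20 with array set as a block, 0.22 in set A alone, 0.01 without exercised 7 and sedentary 6, and -0.18 to 0.24 without 1 animal. With the replicate block sex is separated only through the numbers that hold both sexes. The dimmer probe set gave 0.75 with the replicate block (adjusted p = 0.437), 0.07 with array set as a block and 0.08 without sedentary 7. The difference between the sexes in training effect was 0.44 without exercised 7 and sedentary 6, and -0.78 to 0.10 without 1 animal; on the dimmer probe set it was -0.17 to 0.35, lowest without sedentary 7. The cause of these sign changes was not tested. Same-number correlations of residuals ran from -0.03 to 0.39 and exceeded 0.1 in 5 of 8 pairs, short of every pair, so the numbers were not taken as a pairing. With the replicate block MCL1 had an adjusted p of 0.0863, and the SE of the NR4A3 training difference was 0.222 against 0.353 without it.

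Called probe sets for training numbered 3197, but 631 and 77 when only those above the 40th and 60th percentiles were tested, and 2513 to 3108 without 1 animal. Of the listed genes, 11 were called, 3 and 1 under those filters, 17 with the replicate block and 17 with array set as a block, and 6 to 14 without 1 animal. The filters leave out dim genes, and the called share of all tested probe sets was lower under both. Genes still tested can lose their call. DUSP1 did, with limma adjusted p values of 0.056 and 0.118 under the 40th and 60th percentile filters. Of the 8 genes most like NR4A3, 5 were shared by Spearman correlation, 4 with array set removed, 3 without sedentary 7 and 3 by the dimmer probe set, the last 2 chosen after the data were seen. NR4A2 and the dimmer NR4A3 probe set lay below the filters and have no value there.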
